A study of Mus musculus with 18 samples.

Results

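Fibronectin, integrins and the laminin and collagen chains that anchor epithelium to its basement membrane were examined in organoids, small epithelial cultures grown from the mouse colon. The 9 genes, Fn1, Itga2, Itga3, Itga6, Itgb4, Itgb6, Lama3, Lamb3 and Col17a1, were taken by gene name from a table of 56748 genes. Bulk RNA sequencing covered 18 libraries in 6 groups of 3. Organoids of the proximal, mid and distal colon were kept either in ENR with Wnt3a-conditioned medium, the control in which they proliferate, or in a differentiation medium, and the change of medium came 3 days after passaging. The genotype, strain, sex and age of the mice are not given in the sources used here, nor is it stated whether the 3 numbered replicates came from separate mice. So p-values here measure no more than the spread among these libraries, which may be technical.

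Integrins are receptors made of an alpha and a beta chain that span the cell membrane and tie the extracellular matrix to the cytoskeleton. Epithelial cells lay down laminin trimers in the basement membrane, hold on to them through integrins, and in the hemidesmosome link the integrin Itga6-Itgb4 to keratin filaments through plectin. Fibronectin is a matrix glycoprotein of wounds and stroma that is bound through a short arginine, glycine and aspartate motif.

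Levels are given in FPKM, in which fragments are divided by gene length and by library size, which allows genes to be compared with each other. Changes are differences of log2(FPKM + 1), with the standard error (SE) of a limma fit to all 18 libraries, and adjusted p-values are from limma with Benjamini-Hochberg adjustment over the 12896 genes tested. The test was applied to genes with at least 1 FPKM in at least 3 libraries, which 8 of the 9 genes passed and Col17a1 did not. An adjusted p under 0.05 counts as a change. In bulk RNA, fewer cells of a type and less RNA per cell cannot be told apart.

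Reads counted on genes, as recovered from the FPKM, numbered 12827751 to 19938198 per library. Epithelial identity was clear, since 9 colon epithelial markers, Epcam, keratins and Cdx2 among them, summed to 3429 to 10296 FPKM per library. The 10 fibroblast markers summed to 0.110 to 1.53 FPKM in control and 0.408 to 12.2 FPKM in differentiation medium, and Col1a2, Lum and Thy1 were at 0 in all 18 libraries. Nearly all of the highest fibroblast sum was Pdgfrb, at up to 11.9 FPKM. The 6 muscle markers summed to at most 0.884 FPKM, the 6 endothelial markers to at most 0.663 FPKM, and the 8 immune markers to 1.99 to 3.99 FPKM in control and 0.363 to 1.73 FPKM in differentiation medium, with Cd68 at up to 3.43 FPKM. On the first principal component (63.5% of the variance), along which the media separated, proximal differentiation replicate 1 lay at 5.80, against 37.9 and 44.1 for the other libraries of its group. The share of mitochondrial reads ran from 2.01% to 2.99% under control and from 2.46% to 5.57% under differentiation medium. The part of these shifts in the results on the 9 genes was not tested.

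The medium comparison asked which of the genes differ between differentiation and control medium in organoids of 1 region. In proximal organoids 4 of the 8 tested genes changed, 1 higher and 3 lower, where 53.8% of all tested genes changed (27.6% higher and 26.2% lower). The count was also 4 without proximal differentiation replicate 1. The mid organoids also had 4 of 8 changed, 1 higher and 3 lower, against 63.5% of all tested genes (31.5% higher, 32% lower). In distal organoids the count was again 4 of 8, 1 higher and 3 lower, against 62.9% (31.6% higher, 31.3% lower). The share of these genes that changed was thus no larger than that of all genes. The balance of rises and falls depended on how libraries were scaled, as described with Lamb3. When they were scaled to their summed reads, 5, 4 and 4 of the 8 genes changed in proximal, mid and distal organoids, all of them lower. Of all genes called, the share that was higher moved from 51.4% to 31.1% in proximal, from 49.7% to 28.5% in mid and from 50.2% to 27.6% in distal organoids. Fn1 and Itga2 fell in each region and Lamb3 rose in each. Itgb6 completed the falls in proximal organoids, and Itga6 completed them in mid and distal organoids. A fall in all 3 regions was found for 19.5% of tested genes and a rise in all 3 for 20.1%.

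**Figure D1:**
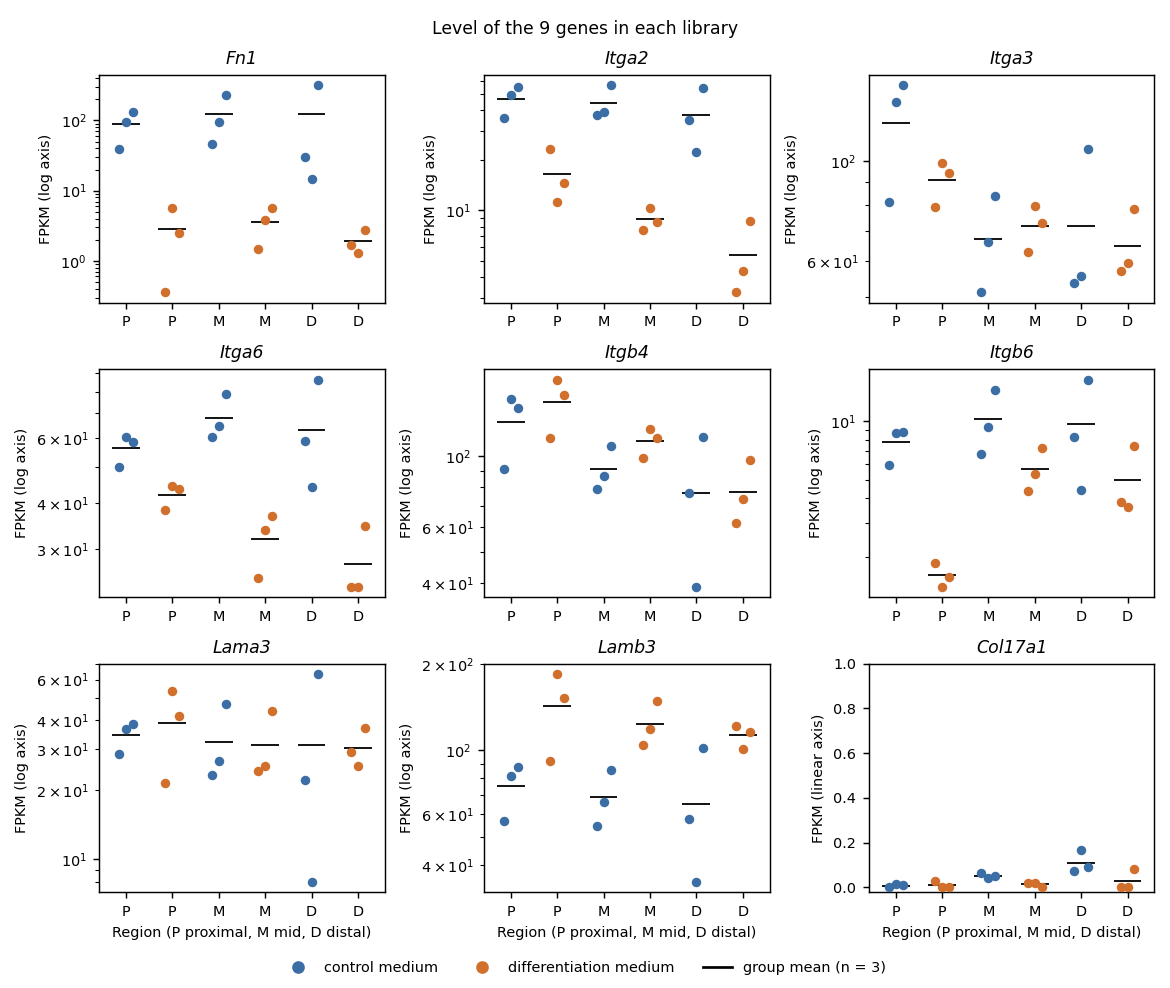
Level of each of the 9 genes in FPKM (log axes, except a linear axis for Col17a1) in each of the 18 libraries, by region and medium, with points for libraries in order of replicate number and bars for the group mean (n = 3). Fn1 and Itga2 lie lower in all differentiation libraries than in any control library of the same region, and Col17a1 does not pass 0.167 FPKM.

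Fn1, which encodes fibronectin (ENSMUSG00000026193, chromosome 1, 71624679 to 71692359, minus strand, mm39), is the matrix ligand of the group. The part of its coding sequence that matters for integrin binding is shown with the arginine, glycine and aspartate codons in capitals, read 5′ to 3′ from GENCODE M21 transcripts on GRCm38. It was found in the longest open reading frame of 8 of 17 Fn1 transcripts, always in the same stretch of 63 bases.
Fn1 stretch: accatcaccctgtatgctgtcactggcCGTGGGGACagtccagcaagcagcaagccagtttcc
Fn1 stood at 38.9, 95.6 and 130.3 FPKM in proximal control libraries and at 0.356, 5.72 and 2.49 FPKM in proximal differentiation libraries (replicates 1, 2 and 3, the order used throughout). The mid control libraries had 46.0, 94.5 and 234 FPKM, and the mid differentiation libraries 1.48, 3.84 and 5.58 FPKM. The distal control libraries ranged most widely, at 30.0, 14.7 and 321 FPKM, while the distal differentiation libraries held 1.71, 1.29 and 2.75 FPKM. No control library overlapped a differentiation library in any region. The log2 changes were -4.65 in proximal, -4.57 in mid and -4.24 in distal organoids (SE 0.91 each, limma adjusted p = 0.000617, 0.000459 and 0.000869). In distal organoids the size rests on 1 library, since without distal control replicate 3 the change was -2.95 (limma adjusted p = 0.00286). Fn1 had 225279 reads over the 18 libraries, and the fewest in a library were 69. Of the fibroblast markers, Col1a1, a collagen that fibroblasts make along with fibronectin, was at most 0.153 FPKM in any library. Vim reached 1.24 FPKM, and Pdgfrb reached 11.9 FPKM in a distal differentiation library. Which cells made Fn1 was not tested.

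Itga2 encodes the alpha chain of a collagen receptor that pairs with Itgb1 (ENSMUSG00000015533, chromosome 13, 114969617 to 115068636, minus strand). Its promoter and those of Itgb6 and Lamb3, 2 genes that fell and the 1 that rose, are shown as the 250 bases before and 50 bases after the most upstream start in RefSeq's table (GRCm38.p6), 5′ to 3′ on the gene's strand. They lie at chr13:114932051-114932350 (minus strand) for Itga2, chr2:60722554-60722853 (minus strand) for Itgb6 and chr1:193301744-193302043 (plus strand) for Lamb3, and capitals mark a GC box.
Itga2 promoter: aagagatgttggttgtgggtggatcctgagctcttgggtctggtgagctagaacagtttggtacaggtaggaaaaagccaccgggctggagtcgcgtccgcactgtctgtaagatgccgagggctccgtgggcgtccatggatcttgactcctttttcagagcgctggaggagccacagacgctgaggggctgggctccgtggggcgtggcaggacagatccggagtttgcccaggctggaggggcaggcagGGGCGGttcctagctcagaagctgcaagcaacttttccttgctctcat
Itgb6 promoter: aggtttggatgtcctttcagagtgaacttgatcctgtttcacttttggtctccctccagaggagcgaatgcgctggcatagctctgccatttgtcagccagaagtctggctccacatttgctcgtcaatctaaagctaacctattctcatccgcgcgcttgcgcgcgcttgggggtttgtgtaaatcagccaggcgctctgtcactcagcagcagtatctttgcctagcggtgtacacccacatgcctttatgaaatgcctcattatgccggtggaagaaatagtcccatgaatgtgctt
Lamb3 promoter: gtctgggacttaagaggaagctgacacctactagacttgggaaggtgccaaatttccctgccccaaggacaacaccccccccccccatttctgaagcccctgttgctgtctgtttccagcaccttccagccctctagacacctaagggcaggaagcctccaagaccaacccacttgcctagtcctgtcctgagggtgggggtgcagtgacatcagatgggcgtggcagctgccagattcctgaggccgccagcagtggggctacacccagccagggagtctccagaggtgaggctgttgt
Letters of 4 motifs were searched on both strands: TGANTCA of AP-1, GGAATG of TEAD, GGGCGG of the GC box and TTTATNG of CDX factors. Among all 32851 promoter windows of this length these letters occurred in 7.81%, 14.7%, 35.7% and 10.9%. The table held 5 of the 9 genes. The Itga2 window held 1 GC box, at bases 253 to 258, the Itga3 window held 3, the Col17a1 window held 2 CDX matches, and those of Itgb6 and Lamb3 held none of the 4.

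Itga2 was at 36.1, 49.2 and 55.0 FPKM in proximal control and at 23.5, 11.2 and 14.6 FPKM in proximal differentiation libraries. In mid organoids the values were 37.5, 39.2 and 56.8 FPKM in control and 7.66, 10.4 and 8.52 FPKM in differentiation medium. In distal organoids they were 34.96, 22.4 and 54.7 FPKM in control and 3.22, 4.32 and 8.68 FPKM in differentiation medium. The media did not overlap in any region. Itga2 fell in each region, with log2 changes of -1.49 in proximal, -2.19 in mid and -2.58 in distal organoids (SE 0.34 each, limma adjusted p = 0.00191, 5.5e-05 and 1.38e-05). Each of these changes passed in all 18 fits that left out 1 library.

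Itgb1, the beta chain that pairs with Itga2, Itga3 and Itga6, was the most abundant integrin chain beside the 9 genes, at 91.5 to 279.9 FPKM in control and 57.0 to 172 FPKM in differentiation libraries. It fell in mid (-1.23, SE 0.35, limma adjusted p = 0.00652) and distal organoids (-0.99, limma adjusted p = 0.0233), and its proximal difference was -0.37 (limma adjusted p = 0.387).

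Itga3 encodes the alpha chain of a laminin receptor with Itgb1 (ENSMUSG00000001507, chromosome 11, 94935300 to 94967627, minus strand). It was at 81.2, 135 and 147 FPKM in proximal control and 79.1, 99.2 and 93.8 FPKM in proximal differentiation libraries. The mid values were 51.2, 66.2 and 83.9 FPKM in control and 62.9, 79.4 and 73.1 FPKM in differentiation medium, and the distal values 53.8, 55.5 and 106 FPKM and 57.1, 59.5 and 78.3 FPKM. The media overlapped in each region. The log2 differences were -0.37, 0.12 and -0.08 (SE 0.27 each, limma adjusted p = 0.248, 0.718 and 0.795). With libraries scaled to their summed reads the mid difference turned to -0.31, and the proximal one was -0.69 and passed (limma adjusted p = 0.0356).

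Itga6 and Itgb4 encode the chains of the laminin receptor of the hemidesmosome. Itga6 (ENSMUSG00000027111, chromosome 2, 71575960 to 71688760, plus strand) was at 49.96, 60.3 and 58.7 FPKM in proximal control and 38.2, 44.5 and 43.6 FPKM in proximal differentiation libraries. It held 60.3, 64.7 and 78.9 FPKM in mid control and 25.0, 33.7 and 36.8 FPKM in mid differentiation libraries. In distal organoids the values were 59.0, 44.1 and 86.5 FPKM in control and 23.6, 23.6 and 34.7 FPKM in differentiation medium. All differentiation libraries were below all control libraries of their region. Itga6 fell in mid (-1.08, SE 0.21, limma adjusted p = 0.000453) and distal organoids (-1.15, limma adjusted p = 0.000279). The proximal difference was -0.41 (limma adjusted p = 0.12), and it passed when libraries were scaled to their summed reads (-0.73, limma adjusted p = 0.0108) or when the 2 proximal groups were fitted alone (limma adjusted p = 0.0291).

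Itgb4 (ENSMUSG00000020758, chromosome 11, 115865535 to 115899238, plus strand) had the highest mean of the 9 genes, 105 FPKM over the 18 libraries. It was at 90.9, 151 and 141 FPKM in proximal control and 114, 174 and 156 FPKM in proximal differentiation libraries. Mid libraries held 79.0, 86.8 and 108 FPKM in control and 98.7, 122 and 114 FPKM in differentiation medium, and distal libraries 76.5, 38.9 and 115 FPKM and 61.6, 73.6 and 97.0 FPKM. The media overlapped in each region. The log2 differences of 0.22, 0.29 and 0.12 did not pass (SE 0.31 each, limma adjusted p = 0.575, 0.431 and 0.761) and were -0.10, -0.14 and -0.33 when libraries were scaled to their summed reads. Unlike Itga6, Itgb4 thus showed no fall that passed in any region.

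Itgb6 encodes the beta chain that pairs with Itgav, binds fibronectin and activates latent TGF-beta (ENSMUSG00000026971, chromosome 2, 60428636 to 60552987, minus strand). It was the least abundant of the 8 tested genes, at 5.93, 8.70 and 8.78 FPKM in proximal control and 1.86, 1.39 and 1.56 FPKM in proximal differentiation libraries. The mid libraries had 6.81, 9.33 and 14.6 FPKM in control and 4.37, 5.35 and 7.32 FPKM in differentiation medium. The distal libraries had 8.34, 4.42 and 16.5 FPKM in control and 3.81, 3.63 and 7.46 FPKM in differentiation medium. The media were apart in proximal organoids and overlapped in mid and distal ones. Itgb6 fell by 1.74 in proximal organoids on the log2 scale (SE 0.36, limma adjusted p = 0.000859). The mid difference was -0.72 (limma adjusted p = 0.0925) and the distal one -0.74 (limma adjusted p = 0.0816). With the replicate number as a block in all groups, the distal adjusted p was 0.0255 (limma). Whether that number stands for a shared origin is not known. When libraries were scaled to their summed reads, both differences passed, at -1.09 in mid and -1.13 in distal organoids (limma adjusted p = 0.0153 and 0.013). The mid one also passed when the 2 mid groups were fitted alone (limma adjusted p = 0.0422).

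The Itgb6 calls near the threshold also moved with single libraries. Without mid control replicate 1, distal control replicate 2 or distal control replicate 3 the mid adjusted p was 0.0484, 0.0473 and 0.042 (limma). The distal adjusted p was 0.00825 without distal control replicate 2 and 0.0288 without distal differentiation replicate 3 (limma). Itgav, the alpha partner, was at 7.43 to 24.3 FPKM and its log2 differences were -0.03, -0.09 and 0.01 (limma adjusted p = 0.949, 0.84 and 0.986).

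**Figure D2:**
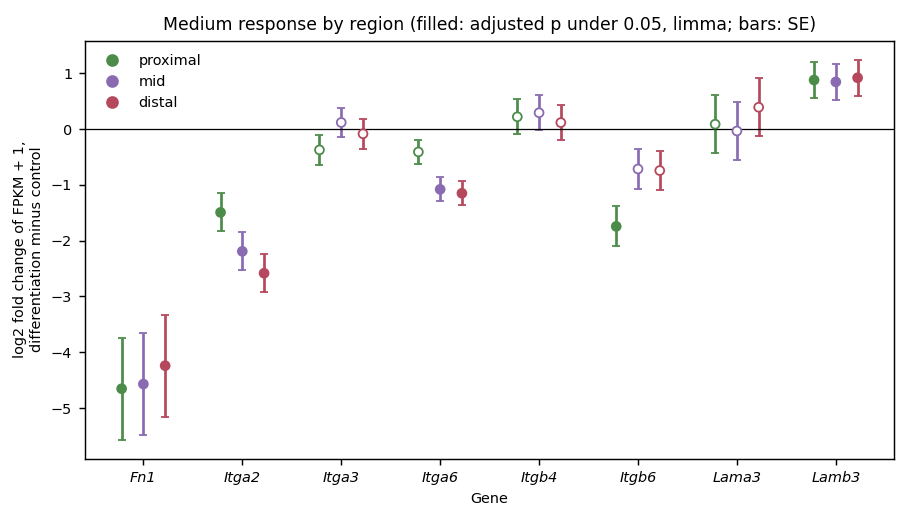
Change between differentiation and control medium (y axis, difference of log2(FPKM + 1)) for the 8 tested genes (x axis), by region, with bars for the SE and filled points for an adjusted p under 0.05 in limma. Fn1 and Itga2 lie below 0 in each region with filled points, Lamb3 lies above 0 with filled points, and Itga3, Itgb4 and Lama3 have open points.

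Lama3 and Lamb3 encode an alpha and a beta chain of the laminin that hemidesmosomes bind. Lama3 (ENSMUSG00000024421, chromosome 18, 12466876 to 12716070, plus strand) was at 28.4, 36.6 and 38.5 FPKM in proximal control and 21.5, 53.7 and 41.6 FPKM in proximal differentiation libraries. The mid values were 23.2, 26.8 and 46.9 FPKM in control and 24.1, 25.5 and 44.0 FPKM in differentiation medium. The distal control libraries spread over 22.005, 8.02 and 63.3 FPKM, and the distal differentiation libraries held 29.0, 25.4 and 36.9 FPKM. The media overlapped in each region. The log2 differences were 0.09, -0.04 and 0.39 (SE 0.52 each, limma adjusted p = 0.905, 0.959 and 0.531). The distal difference was 1.11 without distal control replicate 3 and then passed (limma adjusted p = 0.0363).

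Lamb3 (ENSMUSG00000026639, chromosome 1, 192890007 to 193026186, plus strand) was at 57.0, 81.2 and 87.6 FPKM in proximal control and 91.8, 184 and 152 FPKM in proximal differentiation libraries. In mid organoids it was at 54.7, 66.2 and 85.5 FPKM in control and 104, 119 and 148 FPKM in differentiation medium. In distal organoids it was at 57.7, 34.99 and 102 FPKM in control and 122, 101 and 116 FPKM in differentiation medium. The media were apart in proximal and mid organoids, and in distal organoids 1 differentiation library lay just under the highest control library. Lamb3 rose by 0.88, 0.84 and 0.92 on the log2 scale (SE 0.32 each, limma adjusted p = 0.0321, 0.0326 and 0.022), the only 1 of the 8 genes to rise in any medium comparison.

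The rise of Lamb3 depended on how libraries were scaled. The library size behind the FPKM was 1.15 to 1.20 times the summed reads in control and 0.757 to 1.04 times in differentiation libraries. When libraries were scaled to their summed reads, the median log2 difference of all tested genes moved to -0.26 in proximal, -0.34 in mid and -0.35 in distal organoids. Lamb3 then stood at 0.56, 0.41 and 0.47, which did not pass (limma adjusted p = 0.113, 0.228 and 0.175), and at 0.82, 0.75 and 0.82 above the median of all genes. The proximal call was lost without control replicate 1 or 2 or differentiation replicate 2 or 3 (limma adjusted p = 0.123, 0.0508, 0.142 and 0.0942). The mid call was lost without control replicate 1 or 2 or differentiation replicate 2 or 3 (limma adjusted p = 0.115, 0.0724, 0.0597 and 0.112). The distal call was lost without control replicate 1 or 2 or differentiation replicate 1 (limma adjusted p = 0.0518, 0.134 and 0.0613).

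Ratios of chains within a library do not depend on library scaling, and 3 were compared between the media after the values had been seen. Their p-values and the adjustment do not allow for that choice, and Itga6 is the divisor in both integrin ratios. How often other pairs of genes shift as much was not tested. Lamb3 over Lama3 ran from 1.62 to 4.36 over the 9 libraries in control and from 3.15 to 4.66 over the 9 in differentiation medium, which overlapped. Its log2 difference, averaged over regions, was 0.73 (two-sided exact permutation test within regions, p = 0.00125, 0.00188 adjusted over the 3 ratios). By region the difference was 0.80 in proximal, 0.89 in mid and 0.50 in distal organoids. The highest control ratio, 4.36, was that of a distal library.

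Itgb4 over Itga6, the 2 chains of the hemidesmosome receptor, was 0.880 to 2.51 in control and 2.61 to 3.95 in differentiation libraries, with no overlap. Its log2 difference was 1.11 (exact permutation p = 0.00025, the smallest that 8000 regroupings can give, adjusted 0.00075), with 0.64 in proximal, 1.40 in mid and 1.30 in distal organoids. Itga3 over Itga6 was 0.849 to 2.51 in control and 1.99 to 2.52 in differentiation libraries, with a log2 difference of 0.79 (exact permutation p = 0.0025, adjusted 0.0025). That difference was 0.04 in proximal, 1.22 in mid and 1.09 in distal organoids. In control medium the ratio itself was 2.12 ± 0.454 in proximal, 0.979 ± 0.114 in mid and 1.13 ± 0.193 in distal libraries (SD, n = 3).

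**Figure D3:**
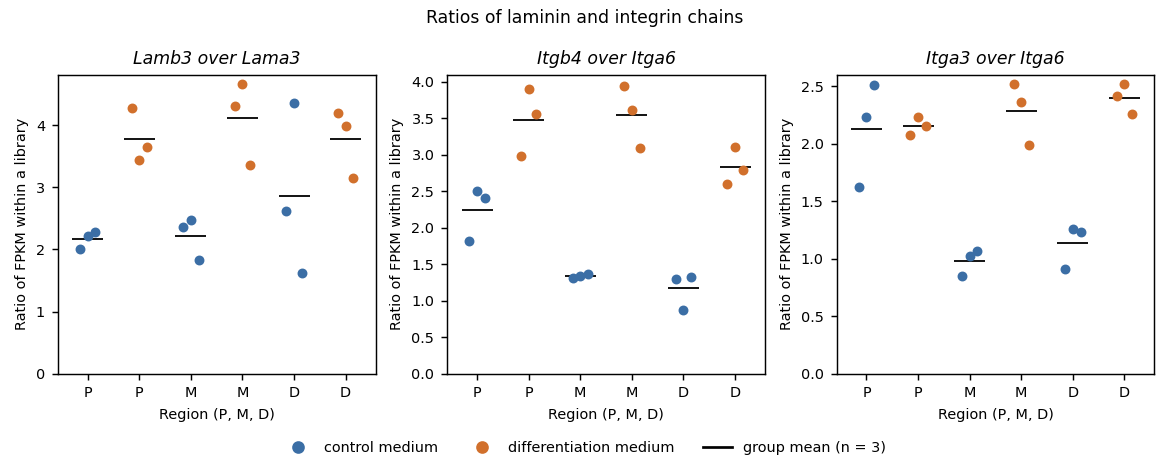
Ratio of FPKM within a library (linear axes from 0) for Lamb3 over Lama3, Itgb4 over Itga6 and Itga3 over Itga6, by region and medium, with a point per library and a bar for the group mean (n = 3). For Itgb4 over Itga6 the control points lie at 0.880 to 2.51 and the differentiation points at 2.61 to 3.95.

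Col17a1, the collagen XVII chain of stratified-epithelium hemidesmosomes (ENSMUSG00000025064, chromosome 19, 47634783 to 47680533, minus strand), was close to absent. It had 76 reads in all 18 libraries together and at most 0.167 FPKM, and 6 libraries had 0 reads. The reads were 0, 2 and 1 in proximal control, 8, 5 and 6 in mid control, and 9, 21 and 10 in distal control libraries. In differentiation medium the proximal libraries had 3, 0 and 0 reads, the mid libraries 2, 2 and 0, and the distal libraries 0, 0 and 7. When genes were tested with no filter on low values, the distal level exceeded the proximal one in control medium by 0.14 (limma adjusted p = 0.021), and it was lower in distal differentiation than in distal control libraries, by -0.11 (limma adjusted p = 0.0162). These differences lie at levels of a few reads per library.

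The region comparison asked whether the genes differ along the colon within 1 medium. In control medium none of the 8 tested genes differed between distal and proximal organoids (10.5% of all tested genes did), between mid and proximal organoids (13.3% did) or between distal and mid organoids (0.326% did). At an unadjusted p under 0.05 in limma the counts were 2, 1 and 0 of 8. Itga3 was nearest to a call, lower by -0.77 in distal (limma adjusted p = 0.0821) and -0.83 in mid than in proximal organoids (limma adjusted p = 0.0526). The other at an unadjusted p under 0.05 was Itgb4, at -0.82 in distal against proximal organoids (limma adjusted p = 0.116).

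In control medium these differences passed when some single libraries were left out. With all libraries kept, Itga3 passed in both comparisons with the replicate number as a block. It also passed in mid against proximal organoids with summed-read scaling. The distal adjusted p of Itga3 was 0.0197 without proximal control replicate 1 and 0.00869 without distal control replicate 3 (limma). The mid adjusted p of Itga3 was 0.0126 without proximal control replicate 1, 0.0497 without proximal differentiation replicate 1, 0.0414 without mid control replicate 3 and 0.0201 without distal control replicate 3 (limma). Itgb4 was at -1.18 in distal against proximal organoids without distal control replicate 3 (limma adjusted p = 0.0158).

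In differentiation medium 4 of 8 genes differed between distal and proximal organoids, 1 higher and 3 lower in distal, where 29.9% of all tested genes differed (15.6% higher, 14.3% lower). Itgb6 was higher in distal organoids by 1.14 (SE 0.36, limma adjusted p = 0.0244), and all 3 distal libraries lay above all 3 proximal ones. Itga2 was lower by -1.48 (SE 0.34, limma adjusted p = 0.00405), Itgb4 by -0.93 (SE 0.31, limma adjusted p = 0.0347) and Itga6 by -0.63 (SE 0.21, limma adjusted p = 0.0386), with no overlap of libraries. Between mid and proximal organoids 1 of 8 differed, against 29.4% of all tested genes, and that gene was Itgb6, higher in mid by 1.34 (limma adjusted p = 0.0103). Between distal and mid organoids 0 of 8 differed, against 0.69% of all tested genes, and 0 of 8 had an unadjusted p under 0.05 in limma.

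Of the distal against proximal calls in differentiation medium, that of Itga2 passed in all 18 fits that left out 1 library. The other calls each rested on a few libraries. The call of Itgb6 was lost without proximal differentiation replicate 2 or 3 or distal differentiation replicate 3 (limma adjusted p = 0.0677, 0.059 and 0.1003). The call of Itgb4 was lost without proximal differentiation replicate 2 or 3 or distal differentiation replicate 1 or 2 (limma adjusted p = 0.112, 0.0898, 0.118 and 0.09), and that of Itga6 without the same 4 libraries (limma adjusted p = 0.0993, 0.0949, 0.121 and 0.136). With no filter on low values the calls of Itgb6, Itgb4 and Itga6 were lost (limma adjusted p = 0.0582, 0.0775 and 0.0797). When the 2 groups were fitted alone, the call of Itga6 was lost (limma adjusted p = 0.0526).

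The size of the medium response was compared between regions with an interaction term. Neither the contrast of distal with proximal response (8.24% of all tested genes) nor an F test over the 3 regions (9.59% of all tested genes) called any of the 8 genes. At an unadjusted p under 0.05 in limma the counts were 2 and 0 of 8. The fall of Itga2 was larger in distal than in proximal organoids by -1.09 (SE 0.48, limma adjusted p = 0.19) and the difference of Itga6 by -0.74 (SE 0.30, limma adjusted p = 0.157), neither past the threshold. For Itgb6 the difference in response was 1.0002, that is, a smaller distal fall (SE 0.50, limma adjusted p = 0.255). So a call in 1 region and not in another, as for Itga6 and Itgb6, was not shown to be a difference between regions.

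Ranked by mean FPKM over the 18 libraries, Itgb4 (105) and Lamb3 (98.0) were followed by Itga3 (81.2), Fn1 (57.3), Itga6 (48.1), Lama3 (33.1), Itga2 (26.6) and Itgb6 (6.67). The order differed between the media. In distal control libraries Fn1 had the highest mean, 122 ± 173 FPKM (SD, n = 3), with a spread that covers the means of its neighbours Itgb4 (76.9 ± 38.2) and Itga3 (71.9 ± 29.8). That place rested on distal control replicate 3, since without it the Fn1 mean was 22.3 FPKM, rank 6 of the 8 genes, and Itgb4 had the highest mean, 57.7 FPKM. In distal differentiation libraries Fn1 had the lowest mean of the 8, 1.92 ± 0.752 FPKM, and Lamb3 the highest, 113 ± 10.6 FPKM. Next came Itgb4 (77.4 ± 17.998) and Itga3 (64.9 ± 11.6), which did not differ beyond their spread, then Lama3 (30.5 ± 5.90) and Itga6 (27.3 ± 6.39), which did not either.

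The genes that surround these 9 were read from lists of partners. As a yardstick for their counts, 27.6% of all tested genes rose with differentiation medium and 26.2% fell where organoids were proximal. For the mid region 31.5% rose while 32% fell, and for the distal region 31.6% rose while 31.3% fell. Whether any list departs from these shares was not tested. The list counts use the FPKM as given, and the balance of rises and falls among all genes depended on library scaling. Of 6 tested other integrin chains, 2 rose and 1 fell in proximal organoids and 2 rose and 3 fell in each of mid and distal organoids. Itgb5, another partner of Itgav, rose from 6.35 ± 2.17 to 20.4 ± 5.89 FPKM in proximal organoids (1.54, SE 0.24, limma adjusted p = 0.000117) and by 1.27 and 1.03 in mid and distal organoids. Itga7, the alpha chain of a laminin receptor best known from muscle, rose by 2.73, 2.26 and 2.42, from group means of 0.384 to 1.34 FPKM to 7.01 to 14.4 FPKM, while the muscle markers stayed under 1 FPKM in sum. Itgb8, a TGF-beta-activating beta chain, fell in mid (-1.74) and distal organoids (-1.85), and in proximal organoids its group means were at most 0.0529 FPKM.

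Of 4 tested other laminin chains, 2 fell in proximal, 4 in mid and 2 in distal organoids, and none rose, with median log2 differences of -0.44, -0.95 and -0.73 against -0.01, 0.00 and 0.00 for all tested genes. Lamc1, the common gamma chain of basement membranes, fell in mid and distal organoids (-1.14 and -1.06, limma adjusted p = 4.59e-05 and 9.02e-05) and stood at -0.05 in proximal ones (limma adjusted p = 0.842). Lama5 had differences of -0.76, -0.76 and -0.70, of which the distal one did not pass (limma adjusted p = 0.0461, 0.0401 and 0.0559). Among 7 tested basement membrane partners, 1 rose and 1 fell in proximal organoids, and 1 rose and 2 fell in each of mid and distal organoids. The linker Nid1 rose by 1.96, 2.24 and 2.16, and Col18a1 fell (-1.78, -1.22 and -1.21), while Col4a1, a main collagen of the basement membrane, did not pass in any region (-0.16, -0.03 and 0.19).

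Of 6 tested hemidesmosome partners, 2 rose and 1 fell in proximal organoids, and 3 rose and 1 fell in each of mid and distal organoids. Plec, the plectin that ties Itgb4 to keratin, rose from 30.6 to 111 FPKM in mid organoids (1.84, SE 0.23, limma adjusted p = 6.58e-06), by 1.54 in distal and by 0.82 in proximal organoids, the last not passing when libraries were scaled to their summed reads (limma adjusted p = 0.065). Dst, a related linker, rose by 0.66, 1.75 and 1.63. Krt14, a basal keratin, fell (-3.03, -4.18 and -2.93), from group means of 8.47 to 21.9 FPKM to at most 0.190 FPKM.

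Of 18 tested genes of the adhesion machinery inside the cell, 3 rose and 6 fell in proximal, 5 rose and 9 fell in mid, and 4 rose and 9 fell in distal organoids. Actn1 and Flna, which crosslink actin at adhesions, fell in each region, Actn1 with changes of -1.83, -2.62 and -2.63 and Flna with -2.50, -2.60 and -2.98. Actn4, a close relative of Actn1, had differences of 0.51, 0.61 and 0.60 that passed, but not when libraries were scaled to their summed reads (limma adjusted p = 0.159, 0.176 and 0.242).

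Of 7 tested other integrin ligands, 1 rose and 5 fell in proximal organoids, 6 fell in mid and 5 fell in distal organoids, with medians of -2.53, -1.99 and -1.88. Spp1, or osteopontin, fell (-3.59, -5.52 and -6.42), from group means of 12.6, 63.7 and 163 FPKM in proximal, mid and distal control to at most 0.970 FPKM. Thbs1, or thrombospondin, fell (-3.40, -1.99 and -1.88), as did Npnt, the nephronectin of basement membranes (-1.97, -1.32 and -1.503). Fn1 was thus not alone among integrin ligands in being lower in differentiation medium.

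Of 11 tested matrix proteases and inhibitors, 5 fell in proximal, 7 in mid and 8 in distal organoids, and 0, 1 and 1 rose. Mmp7, the epithelial matrilysin, fell (-3.36, -2.37 and -1.81), as did Plau, the urokinase (-2.64, -2.04 and -1.84), while Mmp15 rose by 1.01 and 1.21 in mid and distal organoids. The latent TGF-beta list had 5 tested genes: Tgfb1, whose latent product the Itgb6 receptor acts on, Ltbp3, Ltbp4, and the receptor chains Tgfbr1 and Tgfbr2. Of these, 5 fell in proximal, 3 in mid and 4 in distal organoids. Ltbp3 and Ltbp4 were low, with means of 1.30 and 0.875 FPKM over the 18 libraries. Tgfb1 itself fell (-0.83, -1.68 and -1.55), and so did its receptor chain Tgfbr2 (-1.22, -0.69 and -0.61).

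**Figure D4:**
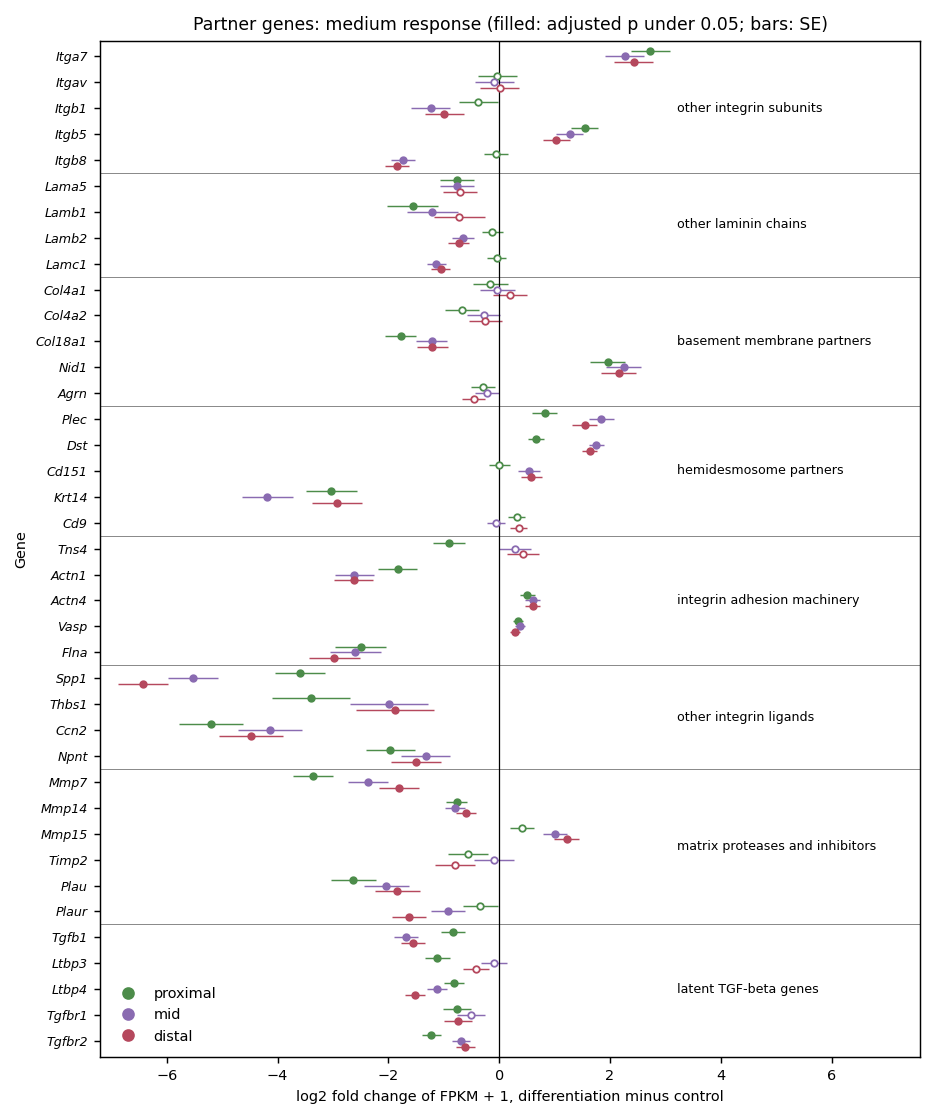
Change between differentiation and control medium (x axis, difference of log2(FPKM + 1)) of partner genes named by rule from 8 lists (y axis), by region, with bars for the SE and filled points for an adjusted p under 0.05 in limma. The other laminin chains and integrin ligands lie at or below 0, and Itga7, Itgb5, Nid1, Plec and Dst lie above 0 in each region.

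The genes whose pattern over the 18 libraries was most like each member were named by the root mean square difference of centred log2(FPKM + 1). They were Cflar (0.15) and Smad3 (0.19) for Itga3, Ywhag (0.15) and Fkbp1a (0.16) for Itga6, Cast (0.18) and Klf6 (0.19) for Lamb3, and Cd276 (0.23) and Elk3 (0.25) for Itga2. For Itgb4 they were Paqr8 (0.25) and Zfand2a (0.26), and for Lama3 Tmsb4x (0.30) and Col4a1 (0.35). For Itgb6 they were Pea15a (0.31) and Gpc4 (0.31), and for Fn1 Aldh1a3 (0.69) and Ctla2a (0.78). The measure is not scaled to how widely a gene varies, so it cannot rank the members by how closely they are matched.

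Genes that overlap these 9 on the chromosome could share reads with them if strand was not kept, and the labels do not say whether it was. The 14 overlapping genes had means of at most 0.620 FPKM, all in Fn1, Itga6, Lama3 or Lamb3.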

How the data were processed

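RNA was measured in 18 libraries of mouse colon organoids, 3 in each of 6 groups. The authors deposited 1 FPKM value per gene and library, per the file headers. Reads were aligned with HISAT2 2.0.5 and counted with featureCounts 1.5.0-p3 on mm39, per the submitters' processing notes, and no source used here gives the library scaling. The deposited FPKM times gene length gave whole reads in every library within 0.001 of a read. These set the number of reads counted on genes and the summed-read scaling. The table also holds 6 columns of group means, which were not tested.

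Values were analysed as log2(FPKM + 1) for genes with at least 1 FPKM in at least 3 libraries. One limma 3.58.1 fit in R 4.3.3 held 6 group means (empirical Bayes with a trend, two-sided, 12 residual degrees of freedom, Benjamini-Hochberg over the 12896 genes, threshold 0.05). Folds of low genes are understated on this scale. Precision is set by 3 libraries a group. The 9 genes and the partner lists were chosen with earlier results of these data known. One gene of the partner lists is not reported here. Members are all named. From each partner list, up to 4 tested genes of highest mean FPKM and up to 2 of largest median change could be named. The alternatives were a pseudocount of 0.1, a filter of 5 FPKM and none, summed-read and median-of-ratios scaling, the compared groups alone, a replicate block and leaving out each library. Same-numbered libraries had deviations correlated above 0.1 at every number in 2 of 9 pairs of groups, distal control with distal differentiation (0.118, 0.223 and 0.158) and mid control with distal control. The script was tested on simulated data. Tables and plots were made in Python 3.11.15 (numpy 2.4.6, pandas 2.3.3, matplotlib 3.10.9).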

Additional observations from a re-analysis of the deposited data

How the results depend on the processing

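The medium counts of 4, 4 and 4 of 8 genes ran from 3 to 4 in proximal, 3 to 5 in mid and 3 to 5 in distal organoids when 1 library was left out. They were 5, 4 and 4 with summed-read scaling (none higher) and 5, 5 and 5 with the replicate block. With the 2 groups fitted alone they were 5, 5 and 3. With no filter they were 3, 3 and 4, but of 9 genes, since Col17a1 was then tested as well. In distal organoids Col17a1 then passed (limma adjusted p = 0.0162), at a few reads per library, and Lamb3 was lost. In control medium the distal against proximal count of 0 was 1 with no filter on low values (Col17a1), 1 with the replicate block (Itga3) and 0 to 2 with 1 library left out. The mid against proximal count of 0 was 1 with summed-read scaling, 1 with the replicate block and 0 to 1 with 1 library left out, each time Itga3. In differentiation medium the distal against proximal count of 4 was 1 with no filter and 1 to 4 with 1 library left out (1 without proximal differentiation replicate 2 or 3, 2 without distal differentiation replicate 1 or 2). Lamb3 did not pass in any region with no filter (limma adjusted p = 0.0735, 0.0744 and 0.0538), nor in distal organoids when the 2 groups were fitted alone (limma adjusted p = 0.0598). The cause was not tested.

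The replicate block changed 5 calls on these genes, all gained and none lost. Beside the distal Itgb6 call they were Itga6 in proximal (limma adjusted p = 0.045) and Itgb6 in mid organoids (0.0301) between the media, and Itga3 in control medium, distal (0.0107) and mid (0.00654) against proximal. Outside the 2 pairs of groups named with the processing, which were set apart by this same correlation, deviations of same-numbered libraries correlated at -0.387 to 0.371. There 8 of 21 library pairs correlated best with their own number, and over all pairs of groups 13 of 27 did. Whether the number stands for a shared origin cannot be told from this. A pseudocount of 0.1 and a filter of 5 FPKM changed the call of none of the 88 single-gene results. Median-of-ratios scaling changed none either, but it could not serve as a check of scaling. Its factor was the same for all 18 libraries, so the deposited values were already level by that measure. No result that passed changed direction under any alternative run. The sign changed in 35 single-gene results that did not pass, in 7 of them with summed-read scaling and in 34 with 1 library left out. The 3 chain ratios kept their direction and call when 1 library was left out or 1 FPKM was added.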

Other observations

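In some groups 1 library was the highest or the lowest for most of the 8 tested genes. The 8 genes come from the same libraries, so they are not separate counts. Replicate 3 was the highest library for 8 of 8 genes in mid control and in distal control, where it was the highest for 33.3% and 34.5% of all tested genes. In proximal control replicate 3 was the highest for 6 of 8 (30% of all tested genes). Replicate 1 was the lowest for 8 of 8 genes in proximal control, mid control and mid differentiation (40.1%, 35.7% and 30.7% of all tested genes). Distal control replicate 2 was the lowest for 7 of 8 (31%). Distal differentiation replicate 3 was the highest for 7 of 8 (34.9%). In proximal differentiation replicate 1 was the lowest for 6 of 8 (47.3%). There replicate 2 was the highest for 6 genes and replicate 1 for 2 (38.5% and 39.2%). Other orders were split. In mid differentiation replicates 2 and 3 were the highest for 3 and 5 genes (32.1% and 35.5%). In distal differentiation replicates 1 and 2 were the lowest for 4 genes each (39% and 27%).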
